A study of Mus musculus with 12 samples.

Results

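The cytosolic ribosome is built from ribosomal RNA and a set of proteins that are named for the subunit they belong to, Rps for the small and Rpl for the large subunit. The genes described here are those whose symbol is Rpl or Rps followed by a digit, together with the stalk genes Rplp0 and Rplp2 and with Rpsa. Only probe sets annotated to exactly 1 gene symbol were used, and kinases named Rps6k, pseudogenes and symbols such as Rpl22l1 were left out. The rule gave 47 of the 15858 genes measured, on 97 probe sets. They comprise 21 small subunit genes, 20 large subunit genes, 2 stalk genes and 4 genes that carry a ribosomal symbol without being core ribosomal proteins, namely Rpl3l, Rps4l, Rps27l and Rps19bp1. The rule reads gene symbols and uses no expression value, but it was chosen with earlier results of these data known.

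The samples were GFP-positive cells sorted from the bone marrow of irradiated mice 4 weeks after they had been transplanted with C57BL/6 bone marrow cells immortalised by HoxA9, a homeobox gene that drives leukaemia in mice. All 4 groups carried HoxA9 and a retroviral vector with a fluorescent marker, and each had 3 arrays. In the IDH1mut group the vector was pSF91-IDH1mut-IRES-GFP, coding for a mutant isocitrate dehydrogenase 1, an enzyme whose cancer mutants make R-2-hydroxyglutarate. In the R-2HG group the cells carried the empty vector and the recipients received a daily 1 mg of R-2HG over 4 weeks. In the IDH1wt group the vector was pSF91-IDH1wt-IRES-EGFP, coding for the normal enzyme, and in the empty vector group it held no IDH1. The labels do not state which IDH1 mutation was used, how many recipients stand behind an array, or whether arrays of 1 group came from separate mice, so p-values measure the spread between arrays, which may in part be technical. For R-2HG samples 1 label, the description, gives the IDH1mut vector. Their other labels and the study's design text give the empty vector, and these were followed.

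Ribosomal proteins are made in near-equal amounts and assemble with ribosomal RNA in the nucleolus. Most of their mRNAs begin with a run of pyrimidines, the 5′ terminal oligopyrimidine (TOP) motif, through which mTOR signalling and the RNA-binding protein Larp1 control their translation together. Blood cell formation is sensitive to their supply: in humans, loss of 1 copy of genes such as RPS19 or RPL11 causes Diamond-Blackfan anaemia, and loss of RPS14 contributes to the anaemia of the 5q- syndrome. Unassembled Rpl11 and Rpl5 bind Mdm2 and so stabilise p53.

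The promoters of 9 of these genes are shown because they belong to members with large called changes in either direction. Each sequence holds the 70 bases around the transcription start that RefSeq annotates on GRCm38.p6, 50 before it and 20 from it on, written on the gene's strand. Capitals mark pyrimidine motifs (CTTTT or CTTTC or CTCTT or CCTTT, searched on the gene's strand within 20 bases of either side of the start, overlapping matches joined) and the ETS factor motif CCGGAAG or its reverse complement CTTCCGG (searched on both strands). Rpl14, Rpl27a and Rps6 were among the genes that fell most in the R-2HG group, Rpl27, Rpl11 and Rpl37 among those that fell most in the IDH1mut group, and Rpl12, Rps9 and Rps25 were the members called higher in one or both of these groups than in the empty vector group.
Rpl14, chr9:120571467-120571536, plus strand: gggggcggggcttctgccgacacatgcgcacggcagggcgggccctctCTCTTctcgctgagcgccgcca
Rpl27a, chr7:109519145-109519214, plus strand: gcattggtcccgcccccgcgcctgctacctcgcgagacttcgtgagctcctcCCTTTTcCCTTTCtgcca
Rps6, chr4:86857348-86857417, minus strand: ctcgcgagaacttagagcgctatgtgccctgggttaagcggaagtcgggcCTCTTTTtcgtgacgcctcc
Rpl27, chr11:101442195-101442264, plus strand: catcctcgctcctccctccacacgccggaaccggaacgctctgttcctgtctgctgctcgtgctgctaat
Rpl11, chr4:136053374-136053443, minus strand: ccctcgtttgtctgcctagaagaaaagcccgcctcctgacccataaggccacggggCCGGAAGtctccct
Rpl37, chr15:5116563-5116632, plus strand: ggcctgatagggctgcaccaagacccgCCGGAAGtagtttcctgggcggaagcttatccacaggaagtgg
Rpl12, chr2:32961662-32961731, plus strand: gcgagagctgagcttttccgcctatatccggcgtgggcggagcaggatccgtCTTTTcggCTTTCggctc
Rps9, chr7:3703991-3704060, plus strand: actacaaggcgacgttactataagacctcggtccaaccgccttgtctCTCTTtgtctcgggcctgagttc
Rps25, chr9:44407664-44407733, plus strand: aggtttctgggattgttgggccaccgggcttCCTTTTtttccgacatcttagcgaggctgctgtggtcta
Of the 9 windows, those of Rpl14, Rpl27a, Rps6, Rpl12, Rps9 and Rps25 hold a pyrimidine motif near the annotated start, those of Rpl11 and Rpl37 hold the ETS motif, and that of Rpl27 holds neither. A promoter window was at hand for 41 of the 47 genes. A pyrimidine motif was found near the start of 16 of the 41 (39.0%), against 17.3% of the 27025 genes with a window, and the ETS motif in the full 300-base window of 20 of the 41 (48.8%), against 9.93% of all. A match is a description of the letters in the window, and annotated starts can lie some bases from those the cells use. The search took exact short matches only, so a gene without one may still have a TOP mRNA.

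The deposited values are log2 expression values centred on each probe set, so 0 stands for a reference within the series and no absolute level can be read. The labelled tissue could therefore not be checked by the level of its markers. The median of the 47 genes was -0.03, -0.06 and -0.07 on the 3 IDH1mut arrays, -0.17, -0.14 and -0.07 on the R-2HG arrays, 0.08, 0.01 and 0.04 on the IDH1wt arrays, and 0.08, 0.11 and 0.13 on the empty vector arrays. All IDH1mut and R-2HG arrays lay below 0 and all IDH1wt and empty vector arrays above it. The empty vector group had the highest group mean for 31 of the 47 genes and the R-2HG group the lowest for 30. Over all genes these shares were 26.3% and 34.1%. Within groups, the median SD of a member was 0.0612, against 0.1246 for all genes, so that smaller differences could be called in this family than in a typical gene.

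**Figure D1:**
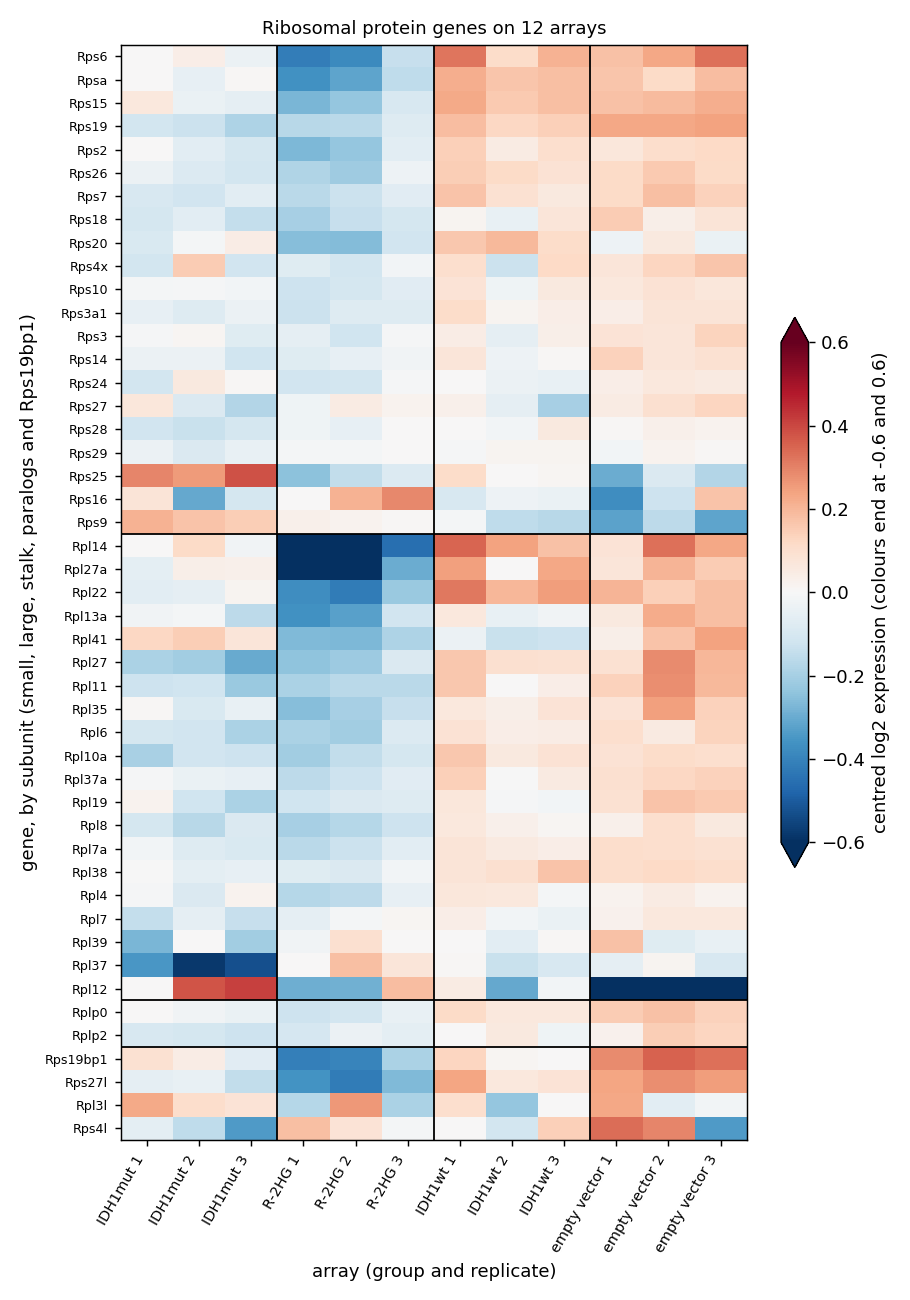
Centred log2 expression (colour, ending at -0.6 and 0.6) of 47 ribosomal protein genes (rows, by subunit) on 12 arrays (columns: IDH1mut, R-2HG, IDH1wt, empty vector, 3 each). Most rows are blue in the R-2HG columns and red in the empty vector columns, while Rpl12, Rps25 and Rps9 are red in the IDH1mut columns and blue in the empty vector columns.

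**Figure D2:**
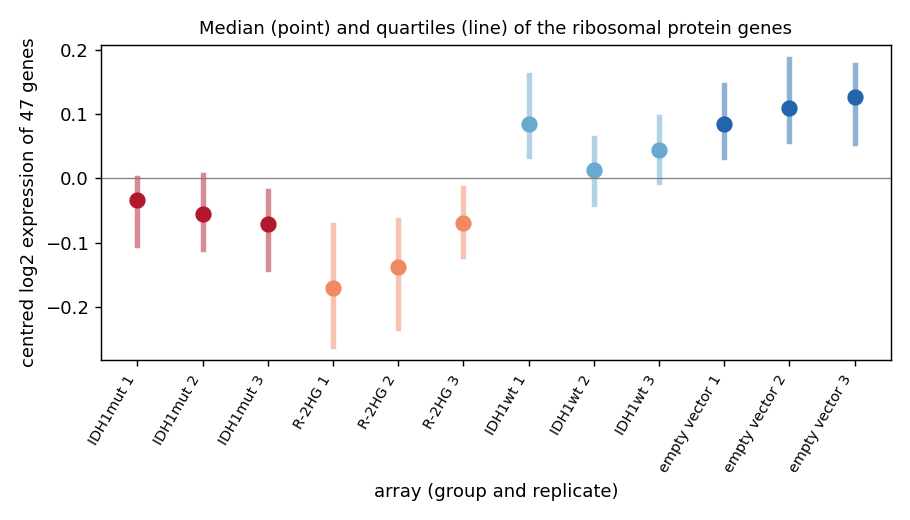
Median (point) and quartiles (line) of centred log2 expression over 47 ribosomal protein genes on each of 12 arrays, coloured by group. The R-2HG medians run from -0.17 to -0.07 and the empty vector medians from 0.08 to 0.13.

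Of the 47 genes, 32 differed among the 4 groups by the F test (68.1%, where 54.6% of all genes did). Of the large subunit genes 17 of 20 were called, and of the small subunit genes 11 of 21. Rps14, Rps16, Rps24, Rps27, Rps28, Rps29, Rpl4, Rpl7 and Rpl39 were among the 15 that were not.

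The first comparison asked what treating the recipients with R-2HG did, with the same vector in both groups. Ribosomal protein genes were lower in the R-2HG group: 29 of 47 fell and 2 rose (limma, adjusted p under 0.05), against a background of 24.3% of all genes lower and 16.5% higher. Falls were called for 15 of 20 large subunit genes, 11 of 21 small subunit genes, 1 of 2 stalk genes and 2 of the other 4. The median log2 fold change of the 47 was -0.23, against 0.00 for all genes, and 41 of the 47 were below 0. All 3 R-2HG arrays lay below all 3 empty vector arrays for 37 genes (29.8% of all genes) and above them for 2 (23.7% of all genes). The arrays hold RNA of whole sorted populations, so fewer cells rich in these mRNAs and less of these mRNAs per cell cannot be told apart.

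Rpl14, a protein of the large subunit surface, showed the largest fall. It measured -1.56, -1.41 and -0.45 on the R-2HG arrays, against 0.08, 0.33 and 0.23 on the empty vector arrays. The groups were separate, and R-2HG replicate 3 lay much nearer to the empty vector arrays than replicates 1 and 2. The log2 fold change was -1.36 ± 0.22 (SE; adjusted p = 0.000593). Rpl27a, another large subunit protein, measured -0.79, -0.71 and -0.30, against 0.07, 0.20 and 0.15 in the empty vector group, a change of -0.74 ± 0.12 (SE; adjusted p = 0.000565). It repeated the order of the R-2HG arrays seen for Rpl14. Each of these genes rests on 1 probe set.

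Rps6, the small subunit protein that S6 kinases phosphorylate downstream of mTOR, measured -0.41, -0.38 and -0.14 on the R-2HG arrays and 0.18, 0.23 and 0.33 on the empty vector arrays. Its log2 fold change was -0.56 ± 0.09 (SE; adjusted p = 0.000547). Rpl22, a large subunit protein that T cell development needs in mice, measured -0.37, -0.42 and -0.22, against 0.20, 0.14 and 0.18 (change -0.51 ± 0.07, SE; adjusted p = 0.000258). Rpsa, which assembles into the small subunit and is also known as a laminin receptor, fell by 0.43 on the log2 scale. Rpl13a, Rps15 and Rpl41 changed by -0.42, -0.40 and -0.39. For each of Rps6, Rpl22, Rpsa, Rpl13a, Rps15 and Rpl41 all R-2HG arrays lay below all empty vector arrays.

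Rpl12 and Rps9 were the 2 members called higher. Rpl12, which binds at the base of the stalk, measured -0.29, -0.29 and 0.19 in the R-2HG group and -0.65, -0.79 and -1.45 in the empty vector group (change 0.83 ± 0.20, SE; adjusted p = 0.00714). The empty vector arrays were the low ones and spread widely. Rps9, a small subunit protein, changed by 0.28 ± 0.07 (SE; adjusted p = 0.00732), a rise that rests on 1 of its 3 probe sets, as described further on. Rps16 stood at 0.27 and Rpl37 at 0.13, and neither passed the test.

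The R-2HG arrays were not alike. Replicate 3 lay above replicates 1 and 2 for 40 of the 47 genes (40.1% of all genes did so) and below all empty vector arrays for 39 (38.7% of all genes). The median difference from the empty vector mean was -0.16 for replicate 3 and -0.25 for the mean of replicates 1 and 2. Without replicates 1 and 2, when the array that is left can only borrow its spread from the other groups, 6 genes were called lower and 1 higher, where 8.09% and 3.41% of all genes were called. These 6 were Rpl14 (-0.67), Rps27l (-0.52), Rps19bp1 (-0.51), Rpl27a (-0.44), Rpl22 (-0.40) and Rps6 (-0.39), and the 1 called higher was Rpl12 (1.15). Some lists of marker genes split the same arrays. A set of 14 markers of mast cells, basophils and eosinophils had a median of -1.77 and -1.90 on R-2HG replicates 1 and 2 and 0.17 on replicate 3, against 0.05 to 0.09 on the empty vector arrays. For 15 erythroid markers it ran from -1.59 on replicate 2 to 0.00 on replicate 3, against -0.71 to -0.58. Dendritic cell (-0.69, -0.61 and 0.20), stem and progenitor (-0.56, -0.41 and -0.13) and B cell markers (-0.32, -0.28 and -0.03) were also highest on replicate 3. Late neutrophil (0.26, 0.24 and 0.20), monocyte and macrophage (0.10, 0.05 and 0.03) and T and NK cell markers (0.00, 0.10 and 0.05) hardly split. Primary granule markers were lowest on replicate 3 (-0.15, -0.14 and -0.40). The part of the markers in the result was not tested.

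The second comparison asked what the mutant construct did relative to the empty vector. Ribosomal protein genes were lower in the IDH1mut group: 16 of 47 fell and 3 rose, where 12.1% of all genes were lower and 10.5% higher. The falls comprised 8 of 20 large subunit genes, 4 of 21 small subunit genes, both stalk genes and 2 of the other 4. The median change was -0.17, against -0.05 for all genes, and 43 of the 47 were below 0. All IDH1mut arrays lay below all empty vector arrays for 33 genes (23.7% of all genes) and above them for 3 (17.5% of all genes). The count of falls dropped to 8 without IDH1mut replicate 2 and to 7 without IDH1mut replicate 3, empty vector replicate 2 or empty vector replicate 3.

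Rpl37, a large subunit protein, measured -0.35, -0.58 and -0.53 on the IDH1mut arrays and -0.05, 0.01 and -0.09 on the empty vector arrays. The change was -0.44 ± 0.08 (SE; adjusted p = 0.00231), and the groups were far apart. Rpl37 rests on 1 probe set, 1438291_x_at. Rpl27, a large subunit protein mutated in some patients with Diamond-Blackfan anaemia, measured -0.19, -0.21 and -0.30, against 0.09, 0.28 and 0.20, a change of -0.43 ± 0.07 (SE; adjusted p = 0.00153).

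Rps19, whose human counterpart is the gene most often mutated in Diamond-Blackfan anaemia, measured -0.11, -0.13 and -0.19 on the IDH1mut arrays and 0.23, 0.23 and 0.24 on the empty vector arrays. Its arrays agreed closely within both groups, and the change was -0.38 ± 0.06 (SE; adjusted p = 0.000951). Rpl11, the Mdm2-binding protein, measured -0.13, -0.12 and -0.22, against 0.14, 0.28 and 0.19 in the empty vector group (change -0.36 ± 0.07, SE; adjusted p = 0.00307). In the R-2HG group, Rps19 changed by -0.37 ± 0.06 and Rpl11 by -0.37 ± 0.07 relative to the same empty vector arrays. Rpl10a, Rps7 (another Mdm2-binding protein), Rpl19 and Rpl6 changed by -0.24, -0.24, -0.24 and -0.23 in the IDH1mut group. Rpl14 and Rpl27a, which led the falls in the R-2HG group, stood at -0.18 and -0.14 and were not called, and Rps6 stood at -0.25 (adjusted p = 0.0643).

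The 3 genes called higher were Rpl12, Rps25 and Rps9. Rpl12 measured 0.00, 0.38 and 0.41 on the IDH1mut arrays, against -0.65, -0.79 and -1.45 on the empty vector arrays (change 1.22 ± 0.20, SE; adjusted p = 0.00127). Rps25, a small subunit protein that initiation at some viral internal ribosome entry sites requires, measured 0.29, 0.25 and 0.38, against -0.30, -0.09 and -0.18 (change 0.50 ± 0.08, SE; adjusted p = 0.000799). Both groups of Rps25 arrays were apart from each other, and those of the R-2HG group, at -0.25, -0.15 and -0.08, overlapped the empty vector arrays. Rps9 changed by 0.44 ± 0.07 (SE; adjusted p = 0.000926), again through 1 of its 3 probe sets.

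**Figure D3:**
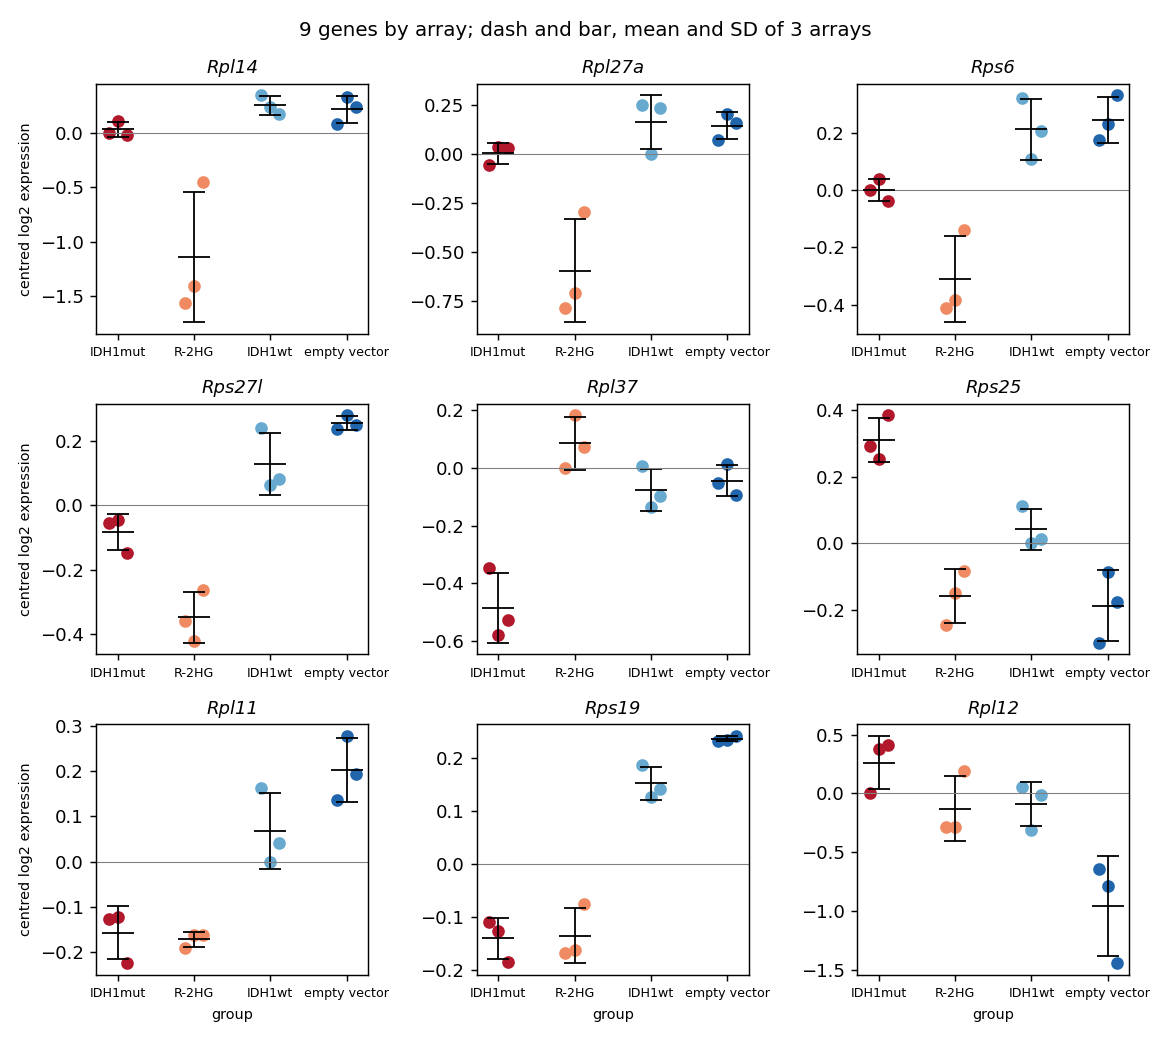
Centred log2 expression of 9 ribosomal protein genes by group (points, arrays; dash and bar, mean and SD of 3 arrays). Rpl14, Rpl27a and Rps6 are lowest in the R-2HG group, Rpl37 is lowest and Rps25 highest in the IDH1mut group, Rps19 and Rpl11 are low in both, and Rpl12 is lowest in the empty vector group.

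The stalk binds the translation factors that drive elongation. Rplp0, its base, changed by -0.18 ± 0.06 in the IDH1mut group (SE; adjusted p = 0.0475) and by -0.25 ± 0.06 in the R-2HG group (SE; adjusted p = 0.00533). Rplp2, one of the acidic proteins bound to Rplp0, changed by -0.21 ± 0.06 in the IDH1mut group (SE; adjusted p = 0.0294) and stood at -0.17 ± 0.06 in the R-2HG group (SE; adjusted p = 0.0502). With 1 of the 12 arrays left out, the call in the IDH1mut group was lost in 11 fits for Rplp0 (adjusted p up to 0.126) and in 5 for Rplp2 (up to 0.103). All arrays of both groups lay below all empty vector arrays for both genes.

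Among the genes outside the core, Rps27l and Rps19bp1 had the smallest adjusted p-values of the family in the comparison of R-2HG with empty vector. Rps27l, a paralog of Rps27 and a known p53 target, measured -0.06, -0.05 and -0.15 on the IDH1mut arrays, -0.36, -0.42 and -0.26 on the R-2HG arrays, 0.24, 0.06 and 0.08 on the IDH1wt arrays, and 0.24, 0.28 and 0.25 on the empty vector arrays. Against the empty vector it fell by 0.34 in the IDH1mut group (adjusted p = 0.00542) and by 0.60 in the R-2HG group (adjusted p = 0.000135). Its parent gene Rps27 stood at -0.15 and -0.08 and was not called. Rps19bp1, which binds Rps19 and is known as an activator of the deacetylase Sirt1, measured 0.09, 0.05 and -0.07 on the IDH1mut arrays, -0.41, -0.40 and -0.19 on the R-2HG arrays, 0.13, 0.01 and 0.00 on the IDH1wt arrays, and 0.28, 0.35 and 0.33 on the empty vector arrays. It changed by -0.30 ± 0.08 (adjusted p = 0.0168) and -0.65 ± 0.08 (adjusted p = 0.000136) relative to the empty vector. With 1 array left out, its call in the IDH1mut group was lost in 3 fits. Rpl3l, the muscle paralog of Rpl3, stood at 0.09 in the IDH1mut group and -0.08 in the R-2HG group, and Rps4l at -0.28 and -0.01, none of them called. Rps4x, the X-linked small subunit gene, stood at -0.15 and -0.19 and was not called either. Rpl3 was listed with other symbols and is not described.

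The third comparison set the mutant against the normal enzyme in the same vector. Falls were called for 7 of 47 genes and rises for 2, where 7.29% of all genes were lower and 8.37% higher. The median was -0.12, against 0.00 for all genes, and 40 genes were below 0. All IDH1mut arrays lay below all IDH1wt arrays for 29 genes (16.9% of all genes) and above them for 3 (15.8% of all genes). The genes called lower were Rpl37 (-0.41 ± 0.08), Rpl27 (-0.35 ± 0.07), Rps19 (-0.29 ± 0.06), Rpl22 (-0.29 ± 0.07), Rpl10a (-0.25 ± 0.06), Rpl11 (-0.22 ± 0.07) and Rps7 (-0.20 ± 0.06), each with its SE. Rps9 (0.29 ± 0.07, through 1 of its 3 probe sets) and Rps25 (0.27 ± 0.08) were called higher. In the IDH1wt group, Rpl37 measured 0.01, -0.14 and -0.10 and Rps19 measured 0.19, 0.13 and 0.14, all above the IDH1mut arrays. Without _s_at and _x_at probe sets, 3 were lower and 4 higher. With each of the 12 arrays left out in turn, the call of Rpl11 was lost in 10 fits (adjusted p up to 0.153), that of Rps7 in 11 (up to 0.144), and that of Rps25 in 6 (up to 0.105). Those of Rpl10a, Rpl22 and Rps9 were lost in 3, 2 and 2 fits. The count of falls was 4 without IDH1mut replicate 1, IDH1mut replicate 2 or IDH1wt replicate 3, 3 without IDH1wt replicate 1, and 11 without R-2HG replicate 3. The count of rises was 0 without IDH1wt replicate 2 or IDH1wt replicate 3, and 1 without any 1 of the IDH1mut arrays or empty vector replicate 3.

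R-2HG against IDH1wt gave 24 falls and 0 rises (by unadjusted p under 0.05, 29 and 0), where 23% of all genes were lower and 21.4% higher. The median was -0.17, against 0.02 for all genes. Rpl14 (-1.40), Rpl27a (-0.76), Rpl22 (-0.59), Rps6 (-0.52) and Rps27l (-0.48) led the falls. They were followed by Rpsa (-0.47), Rps15 (-0.39), Rps19bp1 (-0.38), Rps20 (-0.36) and Rpl27 (-0.30). All R-2HG arrays lay below all IDH1wt arrays for 32 genes (27% of all genes) and above them for 2 (26.4% of all genes). Without R-2HG replicate 1 the falls numbered 15, and without R-2HG replicates 1 and 2 they numbered 5, where 6.47% of all genes were lower and 3.68% higher.

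The comparison of the normal enzyme with the empty vector called no member. Of the 47 genes, 0 were called lower and 0 higher (limma), where 0.561% and 0.788% of all genes were called, and 2 were lower and 4 higher at an unadjusted p under 0.05. All IDH1wt arrays lay below all empty vector arrays for 10 genes (13.6% of all genes) and above them for 3 (10.2% of all genes). The median was -0.04 for the members and for all genes. The smallest adjusted p was 0.0613, for Rpl12, which stood at 0.87 ± 0.20 (SE). The unadjusted 95% interval of a member's change reached 0.15 to either side at the median gene and from 0.12 to 0.47 over the family. A call needs more than that: Rpl41, at -0.25 ± 0.07 (SE), had an adjusted p of 0.107 and was not called.

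Pairs of comparisons that use different arrays can be set side by side. Their lists of called genes are still not independent, because the fit gave each gene the same SE in every pairwise comparison. A gene with a small SD is more easily called in both lists of a pair. The median SD within groups was 0.0612 for members and 0.1246 for all genes. The part of this difference in the shared counts was not tested. Of the 16 genes lower in IDH1mut than in empty vector and the 24 lower in R-2HG than in IDH1wt, 13 were shared, 81.2% of the first list and 54.2% of the second. Over all genes these shares were 55.4% and 29.1%. The 13 were Rpl6, Rpl8, Rpl10a, Rpl11, Rpl22, Rpl27, Rplp0, Rps7, Rps15, Rps19, Rps26, Rps19bp1 and Rps27l. Some passed narrowly in IDH1mut against empty vector. Their adjusted p-values in limma were 0.0493 for Rpl22, 0.0475 for Rplp0, 0.0467 for Rpl8, 0.0466 for Rps15 and 0.0434 for Rps26. Of the 7 genes lower in IDH1mut than in IDH1wt and the 29 lower in R-2HG than in empty vector, 6 were shared. These were 85.7% and 20.7% of the lists, against 69.3% and 20.8% over all genes. The 6 were Rpl10a, Rpl11, Rpl22, Rpl27, Rps7 and Rps19. The calls of Rpl10a, Rpl11, Rpl22 and Rps7 in IDH1mut against IDH1wt were lost in some fits, as given above. Rpl37, the remaining gene of the 7, stood at 0.13 ± 0.08 in R-2HG against empty vector (SE; adjusted p = 0.219). Across the 47 genes, Pearson's r between the changes was 0.205 for the first pair (0.207 over all genes) and 0.491 for the second (0.439 over all genes). The second dropped to 0.345 without Rpl12.

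The effect of the mutant over the normal enzyme and that of R-2HG over the empty vector were then tested for a difference. The difference, (IDH1mut minus IDH1wt) minus (R-2HG minus empty vector), was called above 0 for 5 of 47 genes and below 0 for 1. Of all genes, 7.81% and 2.73% were called. For the 43 core members the counts were 3 and 1 (6.98% and 2.33%), close to those shares. Rpl14 (1.13, adjusted p = 0.0381), Rps19bp1 (0.63, adjusted p = 0.0113), Rpl41 (0.60, adjusted p = 0.00883), Rpl27a (0.58, adjusted p = 0.0453) and Rps27l (0.39, adjusted p = 0.034) were the 5 above 0, and Rpl37 (-0.54, adjusted p = 0.0191) was below. Rpl41, the smallest ribosomal protein, measured 0.13, 0.15 and 0.07 on the IDH1mut arrays and -0.27, -0.27 and -0.19 on the R-2HG arrays, against -0.04, -0.13 and -0.12 on the IDH1wt arrays and 0.03, 0.17 and 0.24 on the empty vector arrays. All its arrays lay higher in IDH1mut than in IDH1wt (0.21, adjusted p = 0.0629, not called) and lower in R-2HG than in empty vector (-0.39, adjusted p = 0.00125). By probe set, IDH1mut against IDH1wt stood at 0.60 for 1433530_at and 0.29 for 1454639_x_at, and at -0.05 and 0.00 for the other 2. Without R-2HG replicates 1 and 2 none of the 6 was called, and the count lay between 2 and 9 when 1 array was left out.

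**Figure D4:**
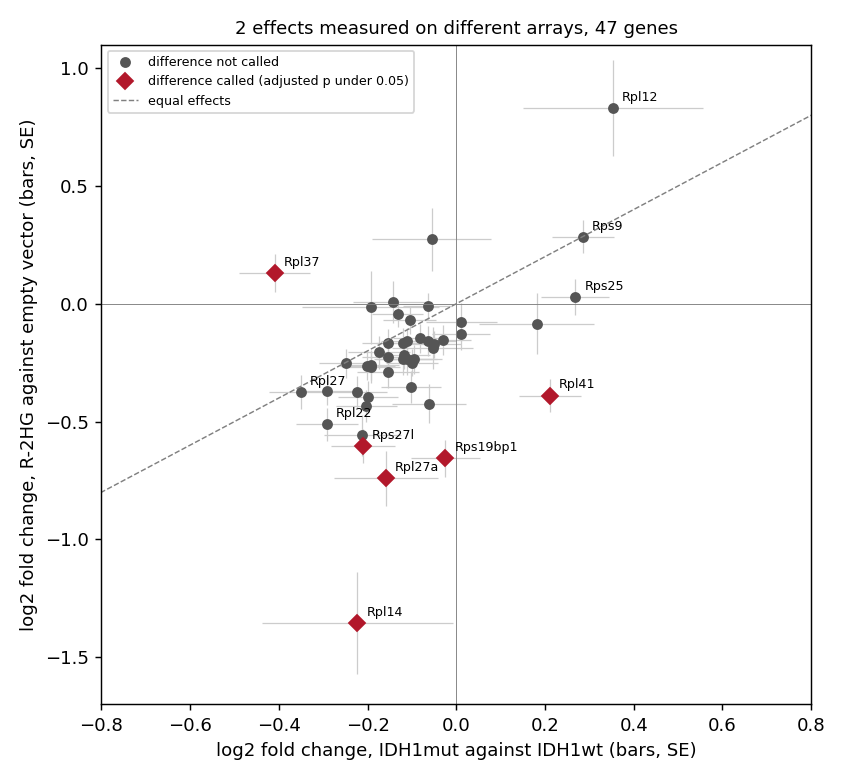
Log2 fold change of R-2HG against empty vector (y axis) and of IDH1mut against IDH1wt (x axis) for 47 ribosomal protein genes, with SE bars; the dashed line marks equal effects and red diamonds the 6 genes whose effects differed. Rpl14 lies at -1.36 on the y axis and -0.22 on the x axis, and Rpl37 at 0.13 and -0.41.

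Set against each other directly, IDH1mut was higher than R-2HG for 10 of 47 genes and lower for 1, where 20.3% of all genes were higher and 15.8% lower. The share of members higher, 21.3% (18.6% of the 43 core members), was close to that of all genes. The share lower, 2.13%, was under it. The 10 were Rpl14 (1.17), Rpl27a (0.60), Rps25 (0.47), Rps19bp1 (0.36), Rpl41 (0.35), Rps6 (0.31), Rpl22 (0.30), Rpsa (0.26), Rps27l (0.26) and Rps15 (0.19), and the 1 was Rpl37 (-0.57). All IDH1mut arrays lay above all R-2HG arrays for 16 genes (25% of all genes) and below them for 4 (22.9% of all genes). With 1 array left out, the call of Rps15 was lost in 11 of 12 fits (adjusted p up to 0.159). The count of 10 became 6 without R-2HG replicate 1 or 2 and 0 without both, where 1.43% of all genes were higher and 0.687% lower. The count of 1 became 2 without IDH1mut replicate 2. Rps19, Rpl11, Rpl27, Rpl10a and Rps7, which were low in both groups, lay between -0.05 and 0.03 in this comparison.

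Several members are measured by probe sets that disagree. Of the 21 genes with more than 1 probe set, 7 had probe sets of mixed sign in IDH1mut against empty vector and 8 in R-2HG against empty vector. Rpl14, Rpl27a, Rpl12 and Rps25 have 1 probe set each, ending in plain _at. Rpl37 has 1 ending in _x_at, and Rps19 and Rpl11 have 1 each ending in _a_at. For these genes no other probe set could be compared. For Rps9, probe set 1426958_at changed by 1.504 ± 0.11 in the IDH1mut group and 0.91 ± 0.11 in the R-2HG group, while its other 2 stood between -0.11 and 0.05. For Rps3, which lines the mRNA entry channel, 1447563_at rose by 0.73 and 1455600_at fell by 0.77 in R-2HG against empty vector, and the gene's mean of -0.15 was not called. Rps10, which is ubiquitinated on stalled ribosomes, fell by 0.17 as a mean, while its probe set 1436384_at rose by 0.40. For Rps24, mutated in some patients with Diamond-Blackfan anaemia, 1455195_at rose by 0.74 in the IDH1mut group, while 1428530_x_at and 1453362_x_at fell by 0.32 and 0.29. In IDH1mut against R-2HG, 1455195_at of Rps24 rose by 0.95 and 1436500_at fell by 0.36. For Rpl35, 1454833_at stood 0.47 above IDH1wt in the R-2HG group, and its other 5 probe sets were called lower.

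**Figure D5:**
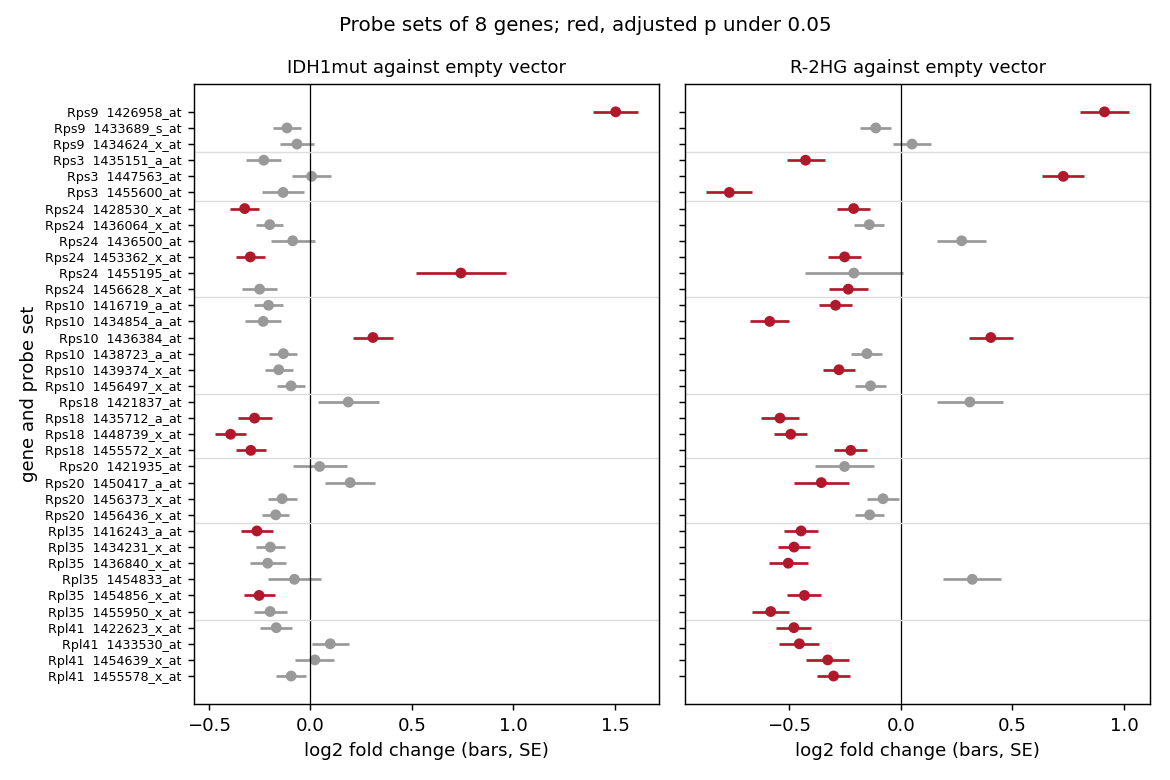
Log2 fold change of each probe set of 8 ribosomal protein genes (points; bars, SE; red, adjusted p under 0.05), in IDH1mut against empty vector (left) and R-2HG against empty vector (right). Rps9 1426958_at lies at 1.504 and 0.91, while most probe sets ending in _x_at or _a_at lie below 0.

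By the ending of the probe set name, all rises against the empty vector came from the 28 probe sets that end in plain _at: 5 were higher and 5 lower in the IDH1mut group, and 4 higher and 12 lower in the R-2HG group. Of the 39 ending in _x_at, which can hybridise to related sequences, 10 and 21 were lower, and of the 27 ending in _a_at, 8 and 19 were lower. The 3 ending in _s_at gave 0 and 2 falls. A further 105 probe sets list a core ribosomal protein beside other symbols, mostly pseudogenes, and no gene is named from them. In IDH1mut against empty vector 31 of these were lower and 0 higher, where 10.3% and 11% of all probe sets were called (median -0.17). In R-2HG against empty vector 51 were lower and 3 higher, where 22.6% and 16.2% of all probe sets were called (median -0.19). Of the same 105, 13 were lower and 1 higher in IDH1mut against IDH1wt (6.33% and 7.37% of all probe sets), 12 lower and 11 higher in IDH1mut against R-2HG (13.9% and 19.3%), 37 lower and 3 higher in R-2HG against IDH1wt (21.7% and 18.4%), and 0 lower and 1 higher in IDH1wt against empty vector (0.744% and 1.53%).

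By promoter motif, 13 of the 25 genes without a pyrimidine motif near the start fell in the IDH1mut group and 0 rose. Among the 16 with the motif there were 2 falls and 3 rises. The median changes were close, at -0.18 without the motif and -0.16 with it. In the R-2HG group 17 of the 25 fell and 0 rose, against 10 falls and 2 rises among the 16. Here the medians were -0.25 without the motif and -0.195 with it. Of the 20 genes with the ETS motif 8 fell in the IDH1mut group and 16 in the R-2HG group. Of the 21 without it 7 and 11 fell. With and without the ETS motif, medians were -0.20 and -0.15 in the IDH1mut group and -0.26 and -0.22 in the R-2HG group. Rpl12, Rps9 and Rps25, whose windows are shown above, are the 3 rises among the genes with a pyrimidine motif. That of Rps9 rests on 1 of its 3 probe sets. Over all genes, 12.1% fell and 10.5% rose in the IDH1mut group, and 24.3% and 16.5% in the R-2HG group. Because the search took exact short matches near the annotated start, this split does not separate TOP mRNAs from other mRNAs. The counts by motif were not tested.

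Other genes of the translation machinery are given by list. The shares of all genes called lower and higher were 12.1% and 10.5% in IDH1mut against empty vector. They were 24.3% and 16.5% in R-2HG against empty vector. Of 20 other TOP mRNAs measured, 7 were lower and 2 higher in IDH1mut against empty vector, and 12 lower and 1 higher in R-2HG against empty vector. Pabpc1, the poly(A)-binding protein, changed by -0.54 and Eef2, an elongation factor, by -0.42 in the IDH1mut group. Npm1, a nucleolar ribosome export factor, changed by -0.57 and Eif3h by -0.55 in the R-2HG group. Eif4a2, an initiation helicase, rose by 0.41 and 0.63 in the IDH1mut and R-2HG groups. Of 22 initiation factors, 7 were lower and 1 higher in the IDH1mut group, and 16 lower and 0 higher in the R-2HG group, where Eif1a changed by -0.92 and Eif3c by -0.84. Of 3 ribosomal proteins outside the symbol rule, Rpl22l1 (-0.47 and -0.56) and Rpl7l1 (-0.33 and -0.46) fell in both groups. Fau, whose product is processed into a small subunit protein, stood at -0.02 and -0.07.

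Genes that build the ribosome were also lower in the R-2HG group, where 24.3% of all genes were lower and 16.5% higher. In the IDH1mut group 12.1% of all genes were lower and 10.5% higher. Of 31 genes of ribosomal RNA synthesis and processing, 25 were lower and 1 higher (median -0.52), among them Wdr12 (-1.06), Nhp2 (-0.99), Rrn3 (-0.77) and Pes1 (-0.75). In the IDH1mut group 8 were lower and 1 higher (median -0.20), with Pes1 at -0.44 lower and Polr1a, the large subunit of RNA polymerase I, at 0.61 higher. Of 27 chaperones and assembly partners, a list that also holds the polyadenylation factor Sympk, 23 were lower and 0 higher in the R-2HG group (median -0.48), among them Pno1 (-1.07), Tsr2 (-0.92), Pdcd2 (-0.87) and Nob1 (-0.78). Tsr2 chaperones the Rps26 protein and Pdcd2 the Rps2 protein. Rps26 and Rps2 themselves changed by -0.27 and -0.29. In the IDH1mut group 5 of the 27 were lower and 0 higher (median -0.19), among them Sbds (-0.35), a factor that readies the large subunit for joining.

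Among 13 regulators of TOP mRNA translation, Myc, which activates transcription of ribosomal protein genes, changed by -0.45 in the IDH1mut group and -1.16 in the R-2HG group. Larp1 changed by -0.34 and the mTOR complex subunit Mlst8 by 0.51 in the IDH1mut group, and Larp4 by -0.37 in the R-2HG group. The list gave 2 falls and 1 rise in the IDH1mut group and 2 falls and 0 rises in the R-2HG group. These counts were near or under the shares of all genes. Those shares were 12.1% lower and 10.5% higher in the IDH1mut group, and 24.3% and 16.5% in the R-2HG group. Of 7 genes of p53 sensing, 4 rose and 0 fell in the IDH1mut group: Ccng1 (0.42), Sesn2 (0.40), Mdm4 (0.37) and Mdm2 (0.32). In the R-2HG group Mdm4 (0.55) and Mdm2 (0.19) rose and 0 fell. Of 13 members known from human Diamond-Blackfan anaemia or the 5q- syndrome, 5 fell in the IDH1mut group and 8 in the R-2HG group, with 0 rises in either. As shares these stand near those of all 47 members, of which 34% and 61.7% fell, where 12.1% and 24.3% of all genes did. Rps14, the 5q- gene, stood at -0.16 ± 0.06 and -0.15 ± 0.06 (SE) and was not called in either group.

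Markers of some cell types also differed between the groups. Of all genes, 12.1% were lower and 10.5% higher in IDH1mut against empty vector. In R-2HG against empty vector these shares were 24.3% and 16.5%. Of 16 late neutrophil markers 12 were higher and 0 lower in IDH1mut against empty vector and 10 higher and 0 lower in R-2HG against empty vector. Their median ran from 0.31 to 0.42 on the IDH1mut arrays, 0.20 to 0.26 on the R-2HG arrays, -0.11 to -0.08 on the IDH1wt arrays and -0.23 to -0.10 on the empty vector arrays. Of 8 primary granule markers, which mark earlier granulocytic cells, 6 and 7 were lower and 0 higher, with medians of -0.58 to -0.51 on the IDH1mut arrays, -0.40 to -0.14 on the R-2HG arrays, 0.15 to 0.23 on the IDH1wt arrays and 0.19 to 0.28 on the empty vector arrays. Of 13 stem and progenitor markers 5 were lower and 3 higher in the IDH1mut group, and 8 lower and 0 higher in the R-2HG group. The counts lower and higher in IDH1mut and then R-2HG were 0 and 5, then 0 and 2, of 15 erythroid markers. They were 3 and 0, then 7 and 1, of 14 mast cell, basophil and eosinophil markers. For 18 B cell markers they were 0 and 5, then 5 and 1, and for 15 T and NK cell markers 1 and 3, then 3 and 2. For 14 dendritic cell markers they were 2 and 3, then 5 and 0, and for 16 monocyte and macrophage markers 6 and 1, then 4 and 2. In the R-2HG group the T and NK cell and the monocyte and macrophage counts stood near the shares of all genes. The B cell falls there were also near the share, and the erythroid counts were near or under the shares. In the IDH1mut group the dendritic cell falls were near the share and the T and NK cell falls under it. Centred values do not show which markers are absent. The part of these markers in the ribosomal protein results was not tested.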

How the data were processed

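Total RNA of sorted cells was biotin-labelled and hybridised to 12 Affymetrix mouse arrays, and the number of arrays limits the precision. The deposited values are log2 values made by the authors with RMA, per the submitters' processing notes. They run from -6.48 to 4.93 over 32533 probe sets, centred per probe set with an unstated reference (83.6% of probe sets hold an exact 0). Probe sets were named from the platform annotation: 28805 had 1 symbol, 757 several and 2971 none. Control probe sets, scan dates and batches were not used here.

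Values of single-symbol probe sets were averaged per gene. The fit used limma 3.58.1 (R 4.3.3), with its lmFit and eBayes steps (4 groups, 8 residual and 3.96 prior degrees of freedom), two-sided, with Benjamini-Hochberg adjustment over 15858 genes and a threshold of 0.05. SE values come from this fit. The fit was tested on simulated data with changed genes drawn from all genes. A log2 change of 0.25 was recovered in 2% to 18% of changed genes, and one of 0.5 in 56% to 68%. Many changes of the size seen here can thus go uncalled, although the members vary less than a typical gene.

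The members, the lists and their tests were chosen with earlier results of these data known. Named were up to 10 members with the largest called change in each direction of a comparison, the stalk genes, Rpsa, Rps6, Rpl11, Rps14, Rps19, the paralogs with their parent genes, members whose probe sets were called in opposite directions, and up to 4 genes of each other list. Other genes named were chosen after their values were seen. Promoter sequences are those of RefSeq on GRCm38.p6. Alternatives varied the normalization, filter, probe sets, weights, trend, block, samples and fold minimum.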

Additional observations from a re-analysis of the deposited data

Results flagged for a closer look

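For 6 of the 47 genes the effect of the mutant over the normal enzyme differed from that of R-2HG over the empty vector. The test was limma's, of the difference (IDH1mut minus IDH1wt) minus (R-2HG minus empty vector). Rps27l and Rps19bp1, which lie outside the core, are among the 6. That is 5 of 47 above 0 and 1 below, where 7.81% and 2.73% of all genes were called. Among the 43 core members 3 were above 0 and 1 below (6.98% and 2.33%), close to the shares of all genes. The count was 0 without R-2HG replicates 1 and 2, 3 with the replicate block, and between 2 and 9 with 1 array left out. Rpl14 differed by 1.13 (adjusted p = 0.0381), with -0.22 for the mutant and -1.36 for R-2HG. Rpl27a differed by 0.58 (adjusted p = 0.0453), with -0.16 and -0.74. Rps19bp1 differed by 0.63 (adjusted p = 0.0113), with -0.02 and -0.65. Rps27l differed by 0.39 (adjusted p = 0.034), with -0.21 and -0.60. In these 4 genes both estimates were below 0 and that of R-2HG was the larger in size. The mutant estimate for Rps19bp1 was smaller than its SE of 0.08. Rpl41 differed by 0.60 (adjusted p = 0.00883), with 0.21 and -0.39, and Rpl37 by -0.54 (adjusted p = 0.0191), with -0.41 and 0.13, so that the signs of the 2 effects were opposite. Of the effects named, those of R-2HG on Rpl14, Rpl27a, Rps19bp1, Rps27l and Rpl41 and that of the mutant on Rpl37 were called. The mutant effect on Rpl41 (adjusted p = 0.0629) and the R-2HG effect on Rpl37 (adjusted p = 0.219) were not, so the opposite signs each rest on 1 called effect. The level of the IDH1wt arrays enters these values. In IDH1wt against empty vector Rps19bp1 stood at -0.27 and Rpl41 at -0.25, neither called. In IDH1mut against empty vector Rps19bp1 stood at -0.30, called lower, and Rpl41 at -0.03, not called. With 3 arrays a group, no formal test for an outlying array was made.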

How the results depend on the processing

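The 47 members kept a median below 0 in every setting run in both comparisons of IDH1mut and of R-2HG with the vector controls, that is, with empty vector and with IDH1wt. With 1 array left out in turn, medians ran from -0.18 to -0.16, -0.25 to -0.21, -0.13 to -0.11 and -0.20 to -0.16 in IDH1mut against empty vector, R-2HG against empty vector, IDH1mut over IDH1wt and R-2HG against IDH1wt, from 0.04 to 0.08 in IDH1mut against R-2HG and from -0.07 to -0.01 in IDH1wt against empty vector. Counts lower and higher ran from 7 to 20 and 3 to 3 in IDH1mut against empty vector, 22 to 29 and 2 to 3 in R-2HG against empty vector, 3 to 11 and 0 to 2 in IDH1mut against IDH1wt, 15 to 26 and 0 to 0 in R-2HG against IDH1wt, 1 to 2 and 6 to 13 in IDH1mut against R-2HG, and 0 to 0 and 0 to 1 in IDH1wt against empty vector. The difference of effects was called in 2 to 9 members and the F test in 24 to 31.

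Without R-2HG replicates 1 and 2, R-2HG against empty vector gave 6 lower and 1 higher (median -0.16), R-2HG against IDH1wt 5 lower (-0.13), IDH1mut against R-2HG 0 higher (0.0037), the difference 0 and the F test 17. Quantile normalization gave a median of -0.19 in R-2HG against empty vector, 11 lower in IDH1mut against IDH1wt, and 1 lower and 1 higher in IDH1wt against empty vector. Keeping genes with an SD above the 30th percentile removes quiet members. It left 6 lower (median -0.21) in IDH1mut against empty vector, 13 lower (-0.38) in R-2HG against empty vector, 4 lower (-0.20) in IDH1mut against IDH1wt, 12 lower (-0.28) in R-2HG against IDH1wt, 1 higher in IDH1wt against empty vector, a median of 0.24 in IDH1mut against R-2HG, and 17 by the F test. Fits of only the 6 arrays compared gave 10 lower in IDH1mut against empty vector, and 4 lower and 0 higher in IDH1mut against IDH1wt. A fold change of at least 1.5 left 0 lower and 1 higher, 4 and 1, and 0 and 0 in IDH1mut against empty vector, R-2HG against empty vector and IDH1mut over IDH1wt, 0 and 2 in IDH1mut against R-2HG, 3 lower in R-2HG against IDH1wt and 3 for the difference.

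Taking the probe set with the highest SD gave 1 lower and 2 higher in IDH1wt against empty vector, 2 lower and 16 higher in IDH1mut against R-2HG and 2 higher in R-2HG against IDH1wt. Without _s_at and _x_at probe sets, IDH1mut against IDH1wt gave 3 lower and 4 higher, IDH1wt against empty vector 1 lower and 1 higher, IDH1mut against R-2HG 0 lower and R-2HG against IDH1wt 1 higher. The 97 probe sets as units gave 5 higher in IDH1mut against empty vector, 54 lower and 4 higher in R-2HG against empty vector, 1 and 1 in IDH1wt against empty vector, 4 and 26 in IDH1mut against R-2HG, 41 and 4 in R-2HG against IDH1wt, 13 for the difference and 59 for the F test. Array weights gave 2 lower and 1 higher in IDH1wt against empty vector, a median of 0.093 in IDH1mut against R-2HG and 13 for the difference. The probe sets that list a core member beside other symbols, added after seeing the data, gave 31 lower and 0 higher, 51 lower (median -0.19), 13 and 1, 12 lower, and 37 and 3, in IDH1mut against empty vector, R-2HG against empty vector, IDH1mut over IDH1wt, IDH1mut against R-2HG and R-2HG against IDH1wt, and 1 higher in IDH1wt against empty vector.

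Single genes changed sign by probe set. Rps9 stood at -0.11 and -0.065 in IDH1mut against empty vector, -0.11 in R-2HG against empty vector, and -0.027 and -0.034 in IDH1mut against IDH1wt. Rps24 stood at 0.74 (its probe set of highest SD) and 0.33 (without _s_at and _x_at) in IDH1mut against empty vector and at -0.36 in IDH1mut against R-2HG. Rps10 stood at 0.40 in R-2HG against empty vector. Rps3 stood at 0.73, -0.72 and 1.09 in R-2HG against empty vector, IDH1mut against R-2HG and R-2HG against IDH1wt. Rpl35 stood at -0.40 in IDH1mut against R-2HG, and at 0.47 and 0.043 in R-2HG against IDH1wt. Replicate numbers did not pair the arrays: of 18 same-numbered pairs, 1 had a correlation of deviations over 0.1 (range -0.15 to 0.12). With the replicate block, IDH1mut against IDH1wt gave 1 higher and the difference 3. The cause of these changes was not tested. Signal over background cannot be read from centred values, and the planned filter on level was not run.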
